A study of Danio rerio with 20 samples.

Results

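The genes described here encode the collagens, laminin chains, fibulins, matrilins and thrombospondins of the zebrafish extracellular matrix, together with the matricellular protein gene ccn2a. They were chosen by name, as the probes whose accession led to a symbol beginning with col and a digit, lama, lamb, lamc, fbn, fbln, matn, thbs or nid, or equal to fn1a, fn1b or ccn2a. Of 14694 non-control probes on the array, 28 met that rule, each for a different gene. The reference gene table holds 100 symbols that meet it. For 72 of them no probe was matched, and they were not analysed here; among these were fn1a, fn1b, col2a1a and every fibrillin and nidogen gene. Of the probes 5509 led to no symbol, so whether the array holds probes for these 72 genes was not tested.

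RNA came from whole embryos in 4 groups of 5 replicates, each a pool of 100 embryos exposed from 0.5 to 24 h after fertilisation. The control group was kept in 0.1% ethanol, and the other groups in 10 µM cyclopamine, SANT-2 or GANT-61. The labels give no strain or genotype, and they name ethanol for the control group alone. Cyclopamine, an alkaloid from the corn lily, and the synthetic SANT-2 are known to bind Smoothened, the membrane protein that relays hedgehog signals, whereas GANT-61 is known as an inhibitor of the Gli transcription factors; the series asked how each compound alters gene expression in the embryo.

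Collagens are triple helices of alpha chains. Those of type I form the fibrils of skin and connective tissue, and those of types IX, XI and XXVII belong to the sheath of the notochord and to cartilage. Laminins are trimers of an alpha, a beta and a gamma chain that build basement membranes, including those around the notochord and the somites, and zebrafish lacking lama1, lamb1a or lamc1 fail to form a normal notochord. The notochord is also a source of Sonic hedgehog, which directs slow muscle and sclerotome, the precursor of cartilage and tendon around the axis, to form beside it.

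Levels are log2 intensities after subtraction of each array's 75th percentile, so 0 is the signal of that percentile and a difference of 1 is 2-fold. Each array had 10038 to 12610 probes well above background by the scanner software's own test, and replicates of a group correlated at r = 0.951 to 0.992 over the genes. The 20 arrays lay on 4 slides, each with arrays of all groups; slide 2 was the dimmest, its arrays having a 75th percentile of 566 to 763 against 1126 to 2060 elsewhere. The response of 2 hedgehog-dependent neural genes was present under cyclopamine, in which nkx2.2a fell by 3.92 and olig2 fell by 2.83 on the log2 scale (limma, adjusted p = 7.12e-10 and 2.22e-08). Neither was called with SANT-2, where the differences were -0.005 for nkx2.2a and -0.07 for olig2, or with GANT-61, where they were 0.06 and -0.05 (limma, adjusted p from 0.9752 to 1.00). The 95% interval of nkx2.2a was -0.42 to 0.41 with SANT-2 and -0.36 to 0.48 with GANT-61. In samples of whole embryos, fewer cells of a type and less RNA per cell cannot be told apart.

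Of the 28 genes, 22 were measurable, meaning that in some group at least 4 of 5 arrays put the probe well above background. For 21 of these the probe was well above background on all 20 arrays, and for col27a1b on 17. The other 6 were not well above background on enough arrays to be tested. These were the basement membrane collagen gene col4a1, the network-forming col8a2, the fibril-associated col19a1, the epidermal transmembrane collagen col17a1b, and the cartilage matrilin genes matn1 and matn3a. No comparison is made for these 6 genes.

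In no comparison of a compound with ethanol did any of the 22 matrix genes pass the test without a block, at an adjusted p under 0.05 over all 11433 genes tested. Of all genes, 0.875% were called with cyclopamine, 0% with SANT-2 and 0.157% with GANT-61. The members' count of 0 therefore lies near the background in each. At an unadjusted p under 0.05 limma gave 2 of 22 members under cyclopamine, ccn2a and lamb1a, against 5.36% of all genes. It gave 2 under GANT-61, col27a1b and thbs1b, against 6.29%, and 0 under SANT-2, against 1.12%. The median difference over the 22 members was 0.07, 0.04 and 0.03 under cyclopamine, SANT-2 and GANT-61, beside 0.03, 0.04 and 0.05 over all genes tested. The sign of these medians was not stable: leaving out 1 array moved them from -0.14 to 0.25, from -0.08 to 0.17 and from -0.10 to 0.18. With slide as a block the SANT-2 and GANT-61 medians were -0.08 and -0.04, beside 0.03 and 0.05 over all genes. The fit without a block takes no account of the slide or of the replicate number. With slide or replicate number as a block, 1 member, ccn2a, was called with cyclopamine, beside 2.17% and 2.24% of all genes.

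These intervals set how large a difference could have gone unseen. The 95% interval lay within a 2-fold change in either direction for 16 of 22 matrix genes under cyclopamine, 16 under SANT-2 and 13 under GANT-61. Over all genes the shares were 83.8%, 84.2% and 81.4%. With slide in the model as a block the counts were 20, 22 and 19, beside 92.8%, 94.9% and 90.6% of all genes. For the other members, 6, 6 and 9 without a block, a 2-fold difference lay within the interval and was not excluded at this number of arrays.

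**Figure D1:**
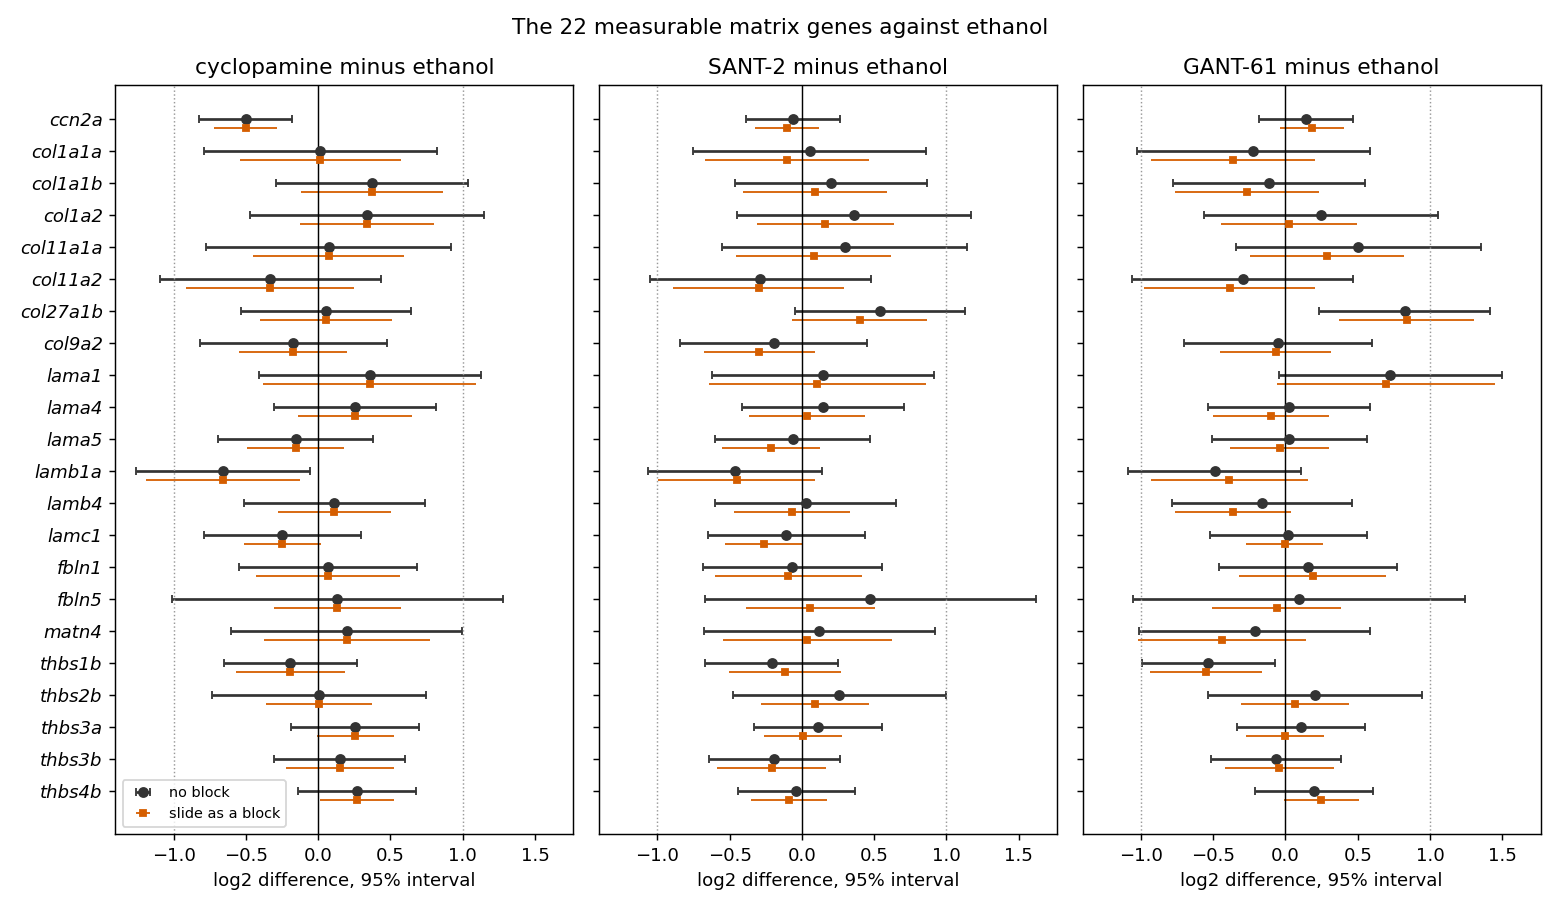
Difference from ethanol on the log2 scale for the 22 measurable matrix genes under each compound, with 95% intervals from limma, grey circles without a block and orange squares with slide as a block (n = 5 arrays per group). Dotted lines mark a 2-fold change; the intervals of ccn2a and lamb1a under cyclopamine lie below 0, and those of col27a1b and thbs1b under GANT-61 exclude 0 in opposite directions.

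Expression of ccn2a, which encodes a secreted CCN-family protein, also called connective tissue growth factor, made in the notochord, was lowest in the cyclopamine group. Its scaled log2 levels on the 5 ethanol arrays were 3.35, 3.39, 3.54, 3.41 and 3.11. On the cyclopamine arrays they were 2.82, 3.00, 3.11, 2.60 and 2.76. All cyclopamine arrays lay below all ethanol arrays, but the highest of the first and the lowest of the second were both 3.11 to 2 decimals. The levels were 3.57, 3.46, 3.48, 2.98 and 3.00 with SANT-2, and 3.41, 3.95, 3.60, 3.23 and 3.32 with GANT-61. The SANT-2 arrays overlapped every other group, whereas the GANT-61 arrays all lay above the cyclopamine arrays.

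Between the compounds, ccn2a was the 1 matrix gene called without a block. It was lower with cyclopamine than with GANT-61 by 0.64 ± 0.15 (SE) on the log2 scale, a 1.56-fold difference (limma, adjusted p = 0.0341). In that comparison 1.83% of all genes were called, and 2.74% had groups that did not overlap. The call was lost without cyclopamine array 1, 2, 4 or 5 or without GANT-61 array 1, 2 or 3, with differences from -0.75 to -0.53 over the alternatives that refit the model. With slide as a block the difference was -0.68 (limma, adjusted p = 0.000733), and the alternatives spanned an adjusted p of 0.000353 to 0.121. Within the 4 slides it was -0.50, -0.85, -0.82 and -0.55.

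The difference of ccn2a between cyclopamine and ethanol was -0.50 ± 0.15 (SE), with a 95% interval of -0.83 to -0.18. It did not pass the test without a block (limma, adjusted p = 0.262), and 1.84% of all genes had groups that did not overlap there. It passed with slide as a block (limma, adjusted p = 0.0129), where 2.17% of all genes were called, and when the replicate number was the block (limma, adjusted p = 0.0167), where 2.24% were. Within the slides the difference was -0.46, -0.43, -0.82 and -0.34, lower on each; over all genes 29.8% had 1 direction on every slide in this comparison. The adjusted p ranged from 0.00683 to 0.646 over the alternatives, and with slide as a block the call was lost without ethanol array 4 or cyclopamine array 4.

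Against SANT-2, ccn2a was lower with cyclopamine by 0.44 and did not pass without a block (limma, adjusted p = 0.565) or with the slide as a block (limma, adjusted p = 0.0761), where 1.54% of all genes were. With the replicate number as a block it passed (limma, adjusted p = 0.0440), the lowest of a range reaching 1.00 over the alternatives. The share of all genes called was 0.752% without a block and 1.78% with the replicate number. SANT-2 and GANT-61 differed from ethanol in ccn2a by -0.06 (95% interval -0.39 to 0.26) and 0.14 (-0.18 to 0.47).

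Between SANT-2 and GANT-61, 0 of the 22 matrix genes were called, beside 0.262% of all genes, and at an unadjusted p under 0.05 limma gave 0 as well, beside 3.74%.

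**Figure D2:**
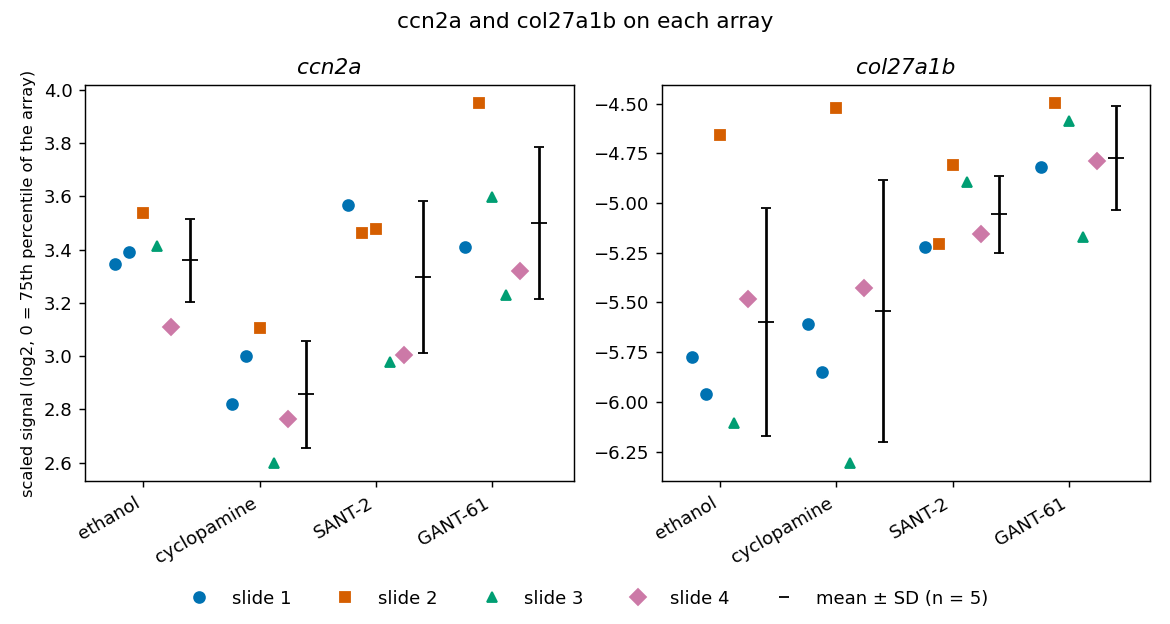
Scaled log2 signal of ccn2a and col27a1b on each array (y axes, separate for the 2 genes) by treatment group, with symbols for the 4 slides and the mean ± SD of 5 arrays beside each group. The 5 cyclopamine arrays of ccn2a lie at 2.60 to 3.11, below all GANT-61 arrays; for col27a1b the ethanol and cyclopamine arrays of slide 2 lie within the GANT-61 range.

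Among the fibrillar collagen genes, col27a1b, whose product is deposited in the notochord sheath and is needed for normal zebrafish vertebrae, had its highest mean in GANT-61 embryos, without a call against ethanol. On the ethanol arrays its scaled log2 level was -5.77, -5.96, -4.66, -6.11 and -5.48. With cyclopamine it was -5.61, -5.85, -4.52, -6.31 and -5.43, with SANT-2 -5.22, -5.21, -4.81, -4.90 and -5.16, and with GANT-61 -4.82, -4.50, -4.59, -5.17 and -4.79. The GANT-61 arrays and the SANT-2 arrays overlapped, and both lay above 4 of the 5 ethanol and 4 of the 5 cyclopamine arrays, the exception in each being the array on slide 2. The probe was dim, being well above background on 4 of 5 ethanol, 3 of 5 cyclopamine, 5 of 5 SANT-2 and 5 of 5 GANT-61 arrays.

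The difference of col27a1b between GANT-61 and ethanol was 0.82 ± 0.28 (SE), with a 95% interval of 0.23 to 1.41, and did not pass (limma, adjusted p = 0.535). It did not pass with slide as a block either (0.84, limma, adjusted p = 0.0646), where 1.71% of all genes were called. Within the slides it was 1.05, 0.16, 1.23 and 0.70. The difference of col27a1b between SANT-2 and ethanol, 0.54 with a 95% interval of -0.05 to 1.13, was the highest of any member under that compound and did not pass (limma, adjusted p = 1.00). Without the 5 arrays of slide 2 the GANT-61 difference was 0.99 and passed (limma, adjusted p = 0.0342). That setting was chosen after seeing the data. It drops the ethanol array that lay within the GANT-61 range, so its pass is no separate support. The share of all genes called in that setting is not given here. Over all alternatives the adjusted p of the GANT-61 difference from ethanol ran from 0.00266 to 1.00. Against cyclopamine the level with GANT-61 was higher by 0.77 without a call (limma, adjusted p = 0.301). That difference passed with slide as a block (limma, adjusted p = 0.0486) and with the replicate number (limma, adjusted p = 0.0332), where 5.36% and 5.65% of all genes were called. The adjusted p of that difference ranged from 0.00947 to 1.00 over the alternatives.

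The type I collagen genes col1a1a, col1a1b and col1a2, which encode the chains of the main fibrils of skin and are also expressed in sclerotome derivatives, showed no called difference in any comparison. In ethanol col1a1a had scaled log2 levels of 1.55, 1.79, 3.29, 2.59 and 1.22, and with cyclopamine 2.13, 1.67, 2.94, 2.63 and 1.15. The 2 groups covered almost the same range, each with its highest array on slide 2 and its lowest on slide 4. The difference was 0.01 (95% interval -0.79 to 0.82) with cyclopamine, 0.06 with SANT-2 and -0.22 with GANT-61.

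For col1a1b the ethanol arrays read 1.24, 1.11, 2.52, 2.06 and 1.01, and the cyclopamine arrays 2.26, 1.40, 2.24, 2.65 and 1.25. The groups overlapped, and the difference of 0.37 ± 0.32 (SE) was the highest of any matrix gene under cyclopamine without passing (limma, adjusted p = 1.00). With GANT-61, col1a1b differed from ethanol by -0.11. For col1a2 the differences were 0.34, 0.36 and 0.25 with cyclopamine, SANT-2 and GANT-61, each with a 95% interval that included 0. A difference from ethanol shared by the 3 chains of this collagen was not tested.

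The gene for the fibril-associated type IX chain, col9a2, had scaled log2 levels of 3.68, 3.57, 4.24, 3.60 and 2.65 in ethanol. They were 3.43, 3.49, 4.09, 3.47 and 2.40 with cyclopamine, 3.47, 3.72, 3.76, 3.42 and 2.39 with SANT-2, and 3.09, 3.66, 3.54, 3.66 and 3.53 with GANT-61. In the first 3 groups the array on slide 4 was the lowest, and in GANT-61 it was not. The group differences from ethanol were -0.17, -0.20 and -0.05, none called. The type XI chain gene col11a1a averaged -1.71 ± 0.76 (SD, n = 5) in ethanol and -1.21 ± 0.56 with GANT-61. Its difference of 0.50 had a 95% interval of -0.34 to 1.35.

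**Figure D3:**
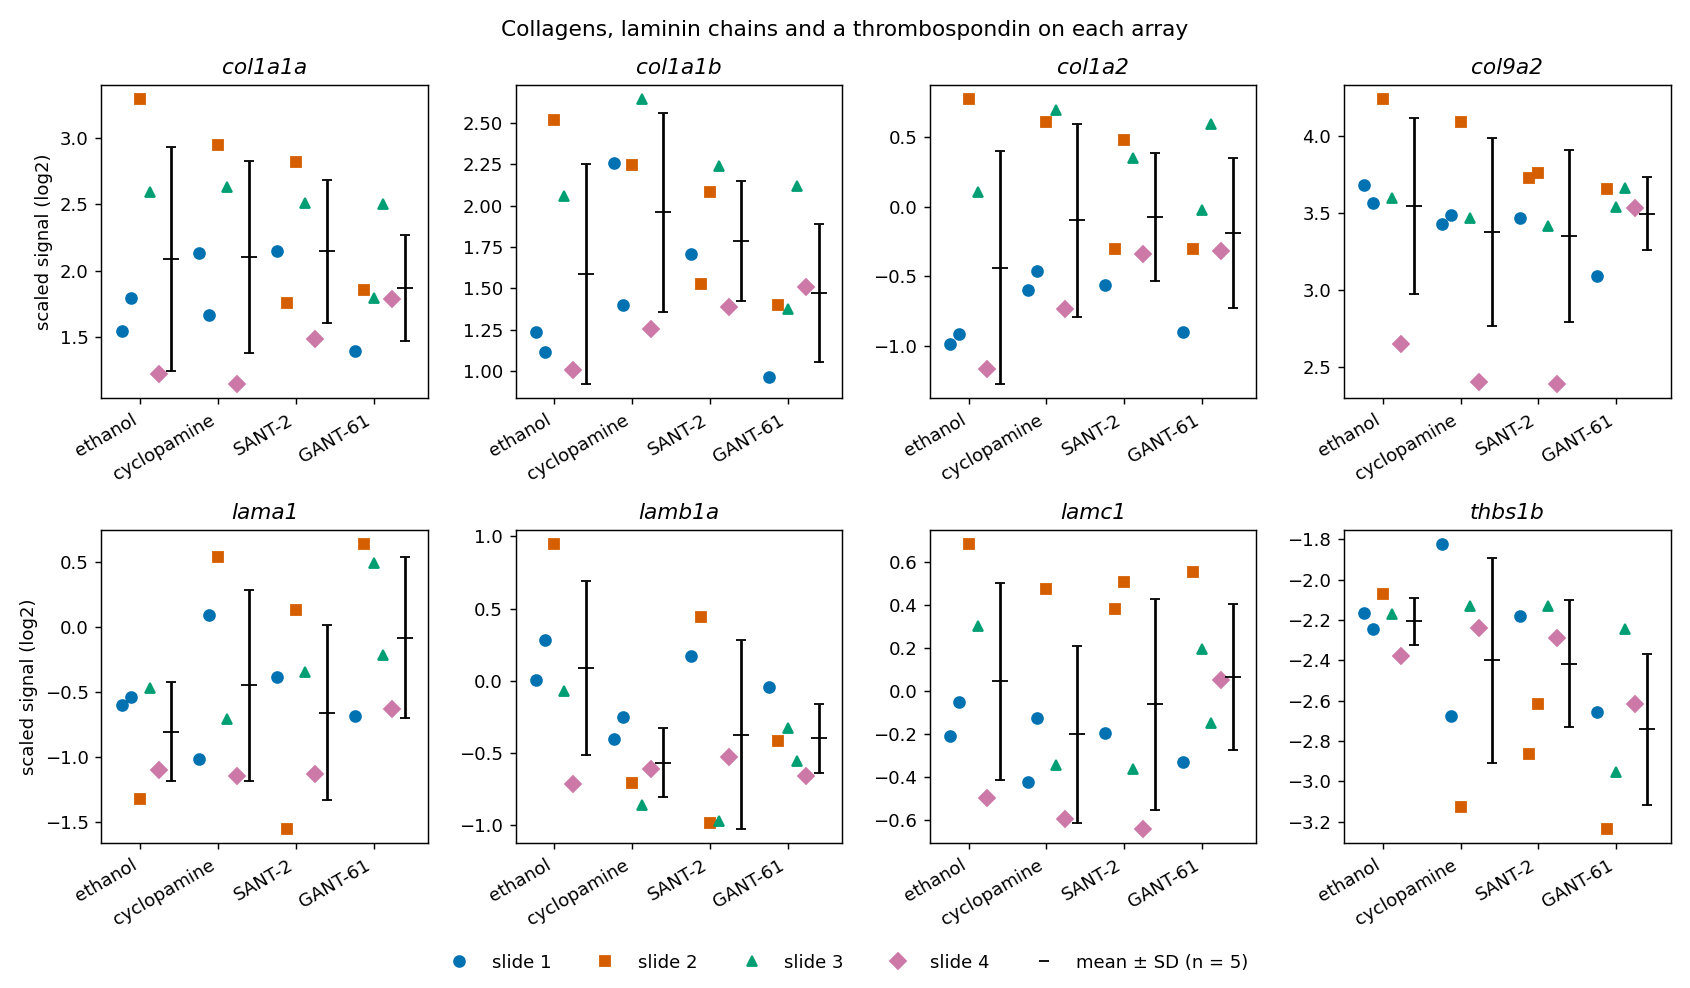
Scaled log2 signal of 8 matrix genes on each array by treatment group, with symbols for the slides and the mean ± SD of 5 arrays beside each group; each panel has its own y axis. For col9a2 the ethanol, cyclopamine and SANT-2 arrays of slide 4 lie at 2.39 to 2.65, under the other arrays of their groups, and for most panels the spread within a group exceeds the distance between group means.

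Of the laminin alpha chain genes, lama1 encodes the alpha chain of the earliest basement membranes. Its levels were -0.60, -0.54, -1.33, -0.47 and -1.10 in ethanol and -0.69, 0.64, 0.49, -0.22 and -0.63 with GANT-61. With cyclopamine they were -1.02, 0.09, 0.54, -0.71 and -1.15, and with SANT-2 -0.39, -1.56, 0.13, -0.34 and -1.13. All groups overlapped, and the ethanol array on slide 2 was the lowest of its group. The GANT-61 difference was 0.73 ± 0.37 (SE) and did not pass (limma, adjusted p = 0.803). Within the slides it was -0.11, 1.96, 0.60 and 0.47, so the sign on slide 1 was the opposite of the others. The epidermal and fin fold chain gene lama5 differed from ethanol by -0.16, -0.06 and 0.03 with cyclopamine, SANT-2 and GANT-61.

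The beta chain gene lamb1a gave the lowest difference of any matrix gene under cyclopamine. Its levels were 0.01, 0.28, 0.95, -0.07 and -0.72 in ethanol and -0.40, -0.26, -0.71, -0.86 and -0.62 with cyclopamine. In the other groups they were 0.17, 0.44, -0.99, -0.97 and -0.53 with SANT-2 and -0.04, -0.42, -0.33, -0.56 and -0.66 with GANT-61. Of the ethanol arrays, 4 lay above every cyclopamine array and the array on slide 4 lay among them. The difference was -0.66 ± 0.29 (SE) and did not pass (limma, adjusted p = 0.790), nor with slide as a block (limma, adjusted p = 0.215). Within the slides it was -0.47, -1.65, -0.79 and 0.10. SANT-2 and GANT-61 gave -0.46 and -0.49, each with an interval that included 0; these 3 differences share the ethanol arrays.

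The gamma chain gene lamc1, which pairs with both of the preceding chains, had levels of -0.21, -0.05, 0.68, 0.30 and -0.49 in ethanol and -0.42, -0.12, 0.47, -0.34 and -0.59 with cyclopamine. Its arrays overlapped in all groups, and its difference of -0.25 had a 95% interval of -0.79 to 0.30. The sign was the same on all 4 slides for cyclopamine and for SANT-2, whose difference was -0.11. The second beta chain gene, lamb4, differed from ethanol by 0.11, 0.03 and -0.16.

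Thrombospondins are calcium-binding glycoproteins, and thbs4b is concentrated where muscle attaches at the somite boundary. Its level ran from 0.79 to 1.40 over the ethanol arrays, 0.93 to 1.72 with cyclopamine, 0.55 to 1.37 with SANT-2 and 1.07 to 1.73 with GANT-61. The cyclopamine difference of 0.27 had a 95% interval of -0.14 to 0.68. The thbs1b levels were -2.17, -2.25, -2.07, -2.17 and -2.38 in ethanol and -2.66, -3.24, -2.95, -2.24 and -2.62 with GANT-61. Of the GANT-61 arrays, 4 lay below every ethanol array, and the difference was -0.53 ± 0.22 (SE) without a call (limma, adjusted p = 0.753). Within the slides it was -0.45, -1.17, -0.43 and -0.24, lower on each. With cyclopamine thbs1b read -1.82, -2.67, -3.13, -2.13 and -2.24, and with SANT-2 -2.18, -2.87, -2.62, -2.13 and -2.29. For thbs3a and thbs3b the differences from ethanol ranged from -0.19 to 0.26.

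The elastic fibre gene fbln5 had the widest spread, from -4.87 to -2.22 in ethanol and from -5.00 to -2.06 with cyclopamine, the highest array being that on slide 2 in both. The matrilin gene matn4 had a mean of 0.47 ± 0.61 (SD, n = 5) in ethanol and differed from it by 0.20, 0.12 and -0.21 with cyclopamine, SANT-2 and GANT-61. The remaining 4 genes, col11a2, fbln1, lama4 and thbs2b, differed from ethanol by -0.33 to 0.26, and none was called.

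The genes were also grouped by tissue, with lists that overlap. Of 10 measurable genes assigned to the notochord, 9 to the somite and muscle boundary, 6 to skin and fin fold and 10 to cartilage and sclerotome, 0 passed the test without a block against ethanol. With slide as a block, 1 notochord gene, ccn2a, fell with cyclopamine. The shares of all genes called with cyclopamine were 0.875% without a block and 2.17% with slide. The median cyclopamine difference was -0.16 for the notochord genes, 0.15 for the somite genes, 0.09 for the skin genes and 0.17 for the cartilage and sclerotome genes. The medians were -0.06, -0.04, 0.04 and 0.08 with SANT-2 and 0.03, 0.02, -0.04 and -0.06 with GANT-61, beside medians over all genes of 0.03 to 0.05.

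Of the markers of the tissues that hold these genes, slow muscle and some sclerotome genes fell in cyclopamine embryos. Of 5 slow muscle genes 4 fell without a block and all 5 with slide as a block, where prox1a, which differed by -0.34, passed as well (limma, adjusted p = 0.0299); the mean scaled log2 level of the 5 was 2.21 ± 0.25 (SD, n = 5) in ethanol and -0.09 ± 0.76 with cyclopamine. Of 5 measurable sclerotome genes nkx3-2 fell by 2.71 (limma, adjusted p = 5.08e-06), and with slide as a block foxc1b and twist2 fell as well. Of 7 measurable notochord markers 0 were called without a block. With cyclopamine 4 of them lay below ethanol and 3 above, with a median difference of -0.10. The difference was 0.11 for tbxta, -0.10 for shha, -0.21 for shhb and -0.31 for noto. With slide as a block foxa2, which is also expressed in the floor plate, fell by 0.50. The mean of the 7 ranged from 0.75 to 1.06 over the ethanol arrays and from 0.51 to 1.01 over the cyclopamine arrays. Of 6 fast muscle, 4 epidermal and 1 cartilage marker, 0 were called with cyclopamine in either model. The 4 epidermal markers averaged 5.04 in ethanol and 5.32 with cyclopamine. With GANT-61, 1 epidermal marker, krt92, differed from ethanol by 0.48 and was called higher with slide as a block (limma, adjusted p = 0.0352). The share of all genes called there was 1.71%. The median GANT-61 difference was 0.49 over the epidermal markers, all 4 higher, and -0.45 over the fast muscle markers, all 6 lower. For the epidermal markers it was 0.32 with cyclopamine, all 4 higher, and 0.31 with SANT-2, 3 of 4 higher. For the fast muscle markers it was -0.16 with cyclopamine, 4 of 6 lower, and 0.16 with SANT-2, all 6 higher. All these differences share the ethanol arrays. None of these was called without a block. The part of these markers in the level of ccn2a was not tested.

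Most of the spread of the matrix genes went with the slide. Same-numbered arrays mostly shared a slide, so the share that goes with slide may hold a part that goes with replicate number. In their deviations from group means, same-numbered arrays on 1 slide correlated at 0.46 to 0.82. Those on different slides correlated at -0.04 to 0.26. Slide and replicate number were not fitted together, and the share of each was not tested. Of each gene's variance over the 20 arrays, with the group term taken first, slide took a median of 56.5% in the 22 members and 53.6% in all genes, and group 6.94% and 10.95%. Slide took more than group in 19 of 22 members, beside 84.9% of all genes. The exceptions were ccn2a, in which group took 56.0% and slide 28.9%, col27a1b, with 40.3% and 29.8%, and lama1, with 19.6% and 18.4%. The highest slide share was 84.5%, for fbln5. The median standard deviation within groups was 0.49 for the members and 0.32 for all genes on the log2 scale. Signals on slide 2 were above their group means in 21 of 22 members, and those on slide 4 below them in 20. The same count over all genes was not made, so whether the members differ from other genes in this was not tested.

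**Figure D4:**
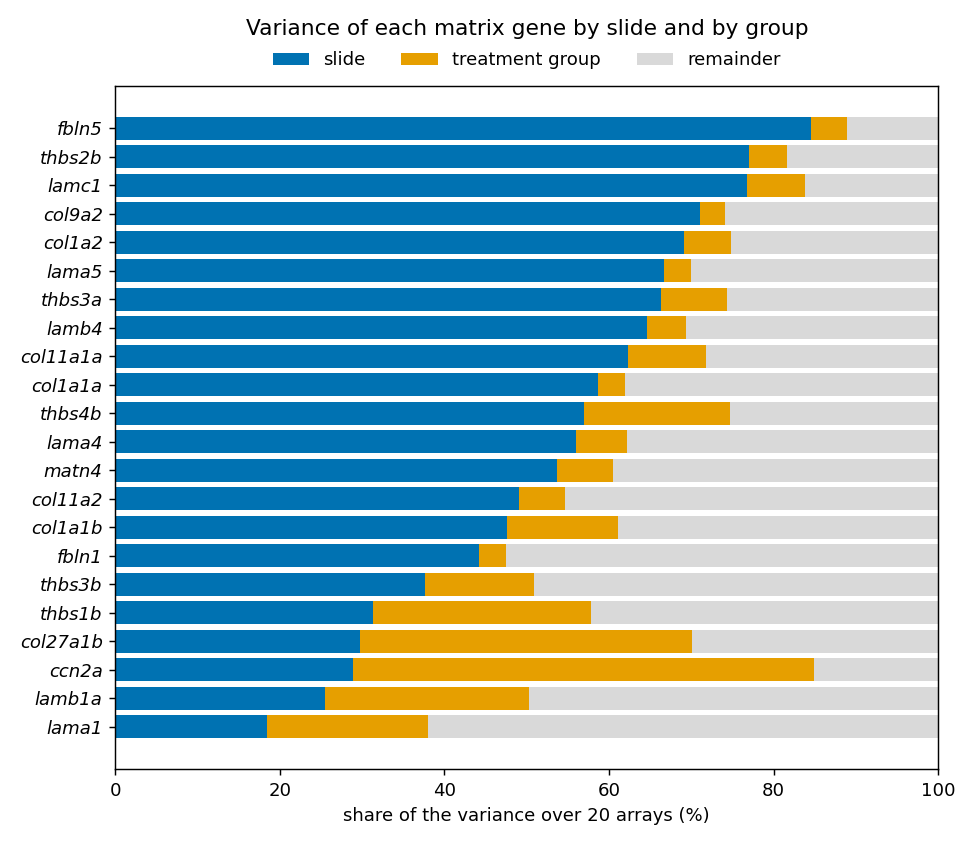
Share of the variance over 20 arrays (x axis, %) that went with slide, with treatment group and with neither, for each of the 22 matrix genes, ordered by the slide share. Slide took from 18.4% for lama1 to 84.5% for fbln5, and group exceeded slide in ccn2a, col27a1b and lama1.

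Within single slides the differences from ethanol varied in direction. On slide 1, 19 of 22 members were above ethanol with SANT-2 (median 0.19) and 4 with GANT-61 (median -0.18), where 63.1% and 59.0% of all genes were. The medians over all genes there were 0.08 and 0.06. On slide 2, 4 were above ethanol with SANT-2 and 7 with GANT-61, where 45.4% and 50.01% of all genes were. The medians there were -0.63 and -0.60, beside -0.03 and 0.00 over all genes, and both were taken against the same single ethanol array. On slide 4, 19 were above ethanol with GANT-61, with a median of 0.48 beside 0.06, where 57.4% of all genes were above. The GANT-61 median thus had opposite signs on slides 2 and 4. Each of these medians rests on 1 or 2 arrays per group, and over all arrays none of the members was called against ethanol without a block. A direction common to all 4 slides was found for 6 of 22 members with cyclopamine, 2 with SANT-2 and 2 with GANT-61, where 29.8%, 10.2% and 21.7% of all genes had one.

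Genes that modify, bind or degrade these proteins were read for comparison. Of 112 listed, which include collagen-processing enzymes, integrin receptors, proteoglycans and proteases, 55 were matched and 46 were measurable. Against ethanol 0 passed without a block for any compound, beside 0.875%, 0% and 0.157% of all genes with cyclopamine, SANT-2 and GANT-61. The large proteoglycan gene vcanb differed most, by -1.07 ± 0.31 (SE) with cyclopamine (limma, adjusted p = 0.176). With slide as a block it fell (limma, adjusted p = 0.0281), as did bgnb, which encodes a small leucine-rich proteoglycan (limma, adjusted p = 0.0314). Of all genes 2.17% were called in that model. With the replicate number as a block, 1 fell, vcanb, beside 2.24% of all genes. Between cyclopamine and GANT-61, ogna, another small leucine-rich proteoglycan gene, was lower with cyclopamine by 0.40 ± 0.09 (SE) (limma, adjusted p = 0.0143). It was the 1 partner of 46 called there without a block, beside 1.83% of all genes. Groups that did not overlap were found for 2 partners, ogna among them, beside 2.74% of all genes. With slide as a block 2 partners were higher and 3 lower there, beside 5.36% of all genes, and with the replicate number 2 and 2, beside 5.65%. The CCN-family gene ccn1l1 differed by -0.82 ± 0.32 (SE) with cyclopamine and itgav, an integrin alpha chain, by -0.38 ± 0.15 (SE) with GANT-61, and neither passed.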

How the data were processed

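RNA from 20 pools of whole zebrafish embryos was hybridised to 1-colour Agilent arrays. The deposited scanner files hold Cy3 intensity. Per the file headers, Agilent Feature Extraction 10.1.1.1 subtracted the background, and no step between arrays was applied. Normalized log2 values, deposited by the authors in a separate table, served only as an alternative. Intensities were taken to log2, outlier spots set aside, and each array's 75th percentile of non-control spots subtracted; spots of a probe were averaged. Accessions were named through the reference gene table (assembly GRCz12tu, names only): 9185 of 14694 probes had 1 symbol and 5509 none. For genes with several probes, none of them a member, the brightest was kept.

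Groups were compared in 1 model with limma 3.58.1 in R 4.3.3, two-sided, with Benjamini-Hochberg adjustment over 11433 genes per comparison. The script was tested on simulated data with independent noise on each array and no slide effect. That test therefore does not show how the fit without a block behaves where slides differ. Slide, from the file headers, and the replicate number in the titles entered as blocks in alternatives. Deviations of same-numbered arrays from their group means correlated above 0.1 in every pair for cyclopamine and ethanol (lowest 0.46) and cyclopamine and SANT-2 (0.26). The same held for cyclopamine and GANT-61 (0.21) and SANT-2 and GANT-61 (0.14). These comparisons were taken as paired, though 5, 4, 3 and 4 of the 5 pairs also shared a slide. The fit with the replicate number as a block follows that pairing, and the fit without a block does not. In the former, ccn2a was called for cyclopamine against each other group, and col27a1b for cyclopamine against GANT-61. With ethanol, the lowest was -0.01 for SANT-2 and -0.04 for GANT-61, and these were not taken as paired. Both of these values came from pairs on different slides. The pairs with ethanol on 1 slide correlated at 0.54 to 0.75 for SANT-2 and at 0.47 to 0.60 for GANT-61. Arrays of these comparisons are therefore not independent of the slide, which the fit without a block leaves out. The number of arrays limits the precision.

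Members, lists and tests were chosen with earlier results of these data known. Members named with values were those called in any model, the 6 with the smallest p per compound and 3 per pair of compounds, the 5 brightest of each tissue list, and ccn2a, lama1, lamb1a and lamc1; 18 of 22 met this.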

Additional observations from a re-analysis of the deposited data

Results flagged for a closer look

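In 4 of 88 sets of 5 arrays (22 genes in 4 groups), 1 array stood far from the others, its gap to the nearest exceeding 0.71 of the whole range; about 1 set in 20 does so by chance. In ethanol, fbln5 read -2.22 on array 3, on slide 2, with the next array at -4.29. With GANT-61, col9a2 read 3.09 on array 1, on slide 1, and the next was 3.53. With SANT-2, col9a2 read 2.39 on array 5, on slide 4, and the next was 3.42. With GANT-61, col11a2, a gene outside the naming rule and given here because of this array, read -1.69 on array 4, on slide 3, where the next was -2.53.

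Of the 6 genes too dim to test, 3 were well above background on some compound arrays and on 0 ethanol arrays. The probe of col17a1b was so on 1 SANT-2 array and that of col4a1 on 1 GANT-61 array. That of matn1 was so on 1 SANT-2 and 1 GANT-61 array. The probe of col8a2 was so on 2 ethanol and 2 SANT-2 arrays, and on 0 cyclopamine and 0 GANT-61 arrays. No difference between groups was tested for them.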

How the results depend on the processing

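No matrix gene changed direction while called under any alternative, but only ccn2a, col27a1b and thbs1b were ever called. Signs of some differences that were never called did change. That of col1a2 between GANT-61 and ethanol ran from -0.13 to 0.74, and that of fbln5 between cyclopamine and ethanol from -0.35 to 0.61. For cyclopamine against ethanol the count of 0 became 1, ccn2a, with quantile normalization, the authors' normalized values, slide as a block, slide as a random block and the replicate block. Of all genes 2.17% were called there with slide as a block and 2.24% with the replicate block. For GANT-61 against ethanol the count of 0 became 2, col27a1b and thbs1b, with array weights, under which 1384 genes in all were called, and 1, col27a1b, without slide 2, a setting chosen after seeing the data. For cyclopamine against SANT-2 the count of 0 became 1 with the replicate block, beside 1.78% of all genes. For cyclopamine against GANT-61 the count of 1 became 0 with median scaling, without a filter on dim probes and with the compared groups alone. It became 2, ccn2a and col27a1b, with slide as a block, slide as a random block, the replicate block, array weights and without slide 2. Of all genes 5.36% were called there with slide as a block and 5.65% with the replicate block. With the replicate block, SANT-2 and GANT-61 against ethanol kept a count of 0, beside 0% and 1.21% of all genes. Leaving out 1 array gave 0 to 2 for cyclopamine against GANT-61, with the ccn2a call kept in 13 of 20 fits, and 0 for every other comparison. With slide as a block as well, also added later, leaving out 1 array gave 0 to 1 for cyclopamine against ethanol (1 in 18 of 20 fits), 1 to 2 for cyclopamine against GANT-61, 0 to 1 for GANT-61 against ethanol (1 in 4 of 20) and 0 for the rest. For the remaining settings the share of all genes called is not given, so these counts were not compared with those of all genes. Background subtraction from the median signals, added later, moved the median of all genes to 0.11 for cyclopamine and for GANT-61 against ethanol. The median over the matrix genes turned below 0 with median scaling (-0.02 for SANT-2 and -0.06 for GANT-61), and for SANT-2 also with quantile normalization and the authors' values (both -0.01). The median over all genes was below 0 in these settings too. It was -0.02 and -0.03 with median scaling, and for SANT-2 -0.01 with quantile normalization and -0.02 with the authors' values. With array weights the matrix gene median was 0.03, 0.21 and 0.22 for cyclopamine, SANT-2 and GANT-61, beside 0.03, 0.05 and 0.06 over all genes. The causes were not tested.

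The normexp correction was not run as planned: mean signals were not used here, and on median signals it left 2 arrays with almost no range (interquartile range 0.0185 and 0.107 on the log2 scale, against 3.07 to 4.23 on the others). Signal over background limits col27a1b most, since its probe was well above background on 17 of 20 arrays.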
